A study of Caenorhabditis elegans with 5 samples.

Results

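The 447 regions described here are stretches of the central domains of chromosomes II, III and IV of Caenorhabditis elegans in which H3K36me3, trimethylation of lysine 36 of histone H3, was called in every library of a chromatin immunoprecipitation sequencing (ChIP-seq) study. They were chosen by merging the broad peaks of the 4 deposited lists wherever peaks shared at least 1 bp, and keeping merged regions with a peak in all 4 lists and a midpoint in II from 4.879 to 12.02 Mb, III from 3.722 to 10.34 Mb or IV from 3.896 to 12.97 Mb. They are 447 of the 7653 merged regions of the series, 447 of the 1291 that had a peak in all 4 lists, and 447 of the 1864 in these 3 domains. Presence in a list chose them and is not itself a result. The libraries came from whole starved L1 larvae, the first larval stage, and comprised 2 of a double mutant and 2 of the wild-type strain N2, with no treatment in either. The mutant, spr-5; met-2, carries the allele by101 of spr-5 (chromosome I) and the allele n4256 of met-2 (chromosome III). Each library was made from 600 larvae of cultures grown at 20 °C. One wild-type input library was not analysed here. The labels do not say whether the replicates came from separate cultures, so the spread between them may be technical.

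H3K36me3 is laid down along genes as they are transcribed. Its writers in this worm are MET-1, which acts with the transcription machinery, and MES-4, which maintains the mark on genes that were expressed in the parental germline. SPR-5 removes methyl groups from lysine 4 of histone H3, a mark of active genes, and MET-2 adds methyl groups to lysine 9, a mark of silent chromatin. The centres of the autosomes recombine less than the arms and are rich in broadly expressed genes, whereas the arms carry more lysine 9 methylation. The comparison of mutant and wild-type larvae asks whether inherited H3K36me3 is distributed differently when both enzymes are absent. In whole larvae, fewer cells carrying the mark and less of the mark per cell cannot be told apart.

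The 4 lists differed in length by replicate number, which touches each result below. The spr-5; met-2 lists held 5886 peaks over 9.24 Mb in replicate 1 and 1938 peaks over 0.781 Mb in replicate 2, and the wild-type lists held 5507 peaks over 8.91 Mb in replicate 1 and 3878 peaks over 1.86 Mb in replicate 2. The lists hold positions only, so the read depth behind a peak is unknown. Mutant and wild type are therefore also set side by side within each replicate number.

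As merged regions, the members were mostly several kilobases wide. Their width ran from 68 to 20530 bp, with a median of 3956 bp and quartiles of 2284 and 6331 bp. Single peaks in them reached this scale in the replicate 1 lists only. The median peak width was 2564.5 and 196 bp in spr-5; met-2 replicates 1 and 2, and 2844 and 417.5 bp in the wild-type replicates. Together the members spanned 2.01 Mb, which is 8.79% of the 22.8 Mb of the 3 domains. Members from 2000 to under 5000 bp were the most numerous, with 175 of 447 (39.1%), and 150 (33.6%) measured from 5000 to under 10000 bp. Only 26 reached 10000 bp, yet these held 15.9% of the summed width. The narrow end was a separate group. There were 44 members under 500 bp, 9 from 500 to under 1000 bp and 43 from 1000 to under 2000 bp. The 44 narrow members held 0.303% of the summed width.

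**Figure D1:**
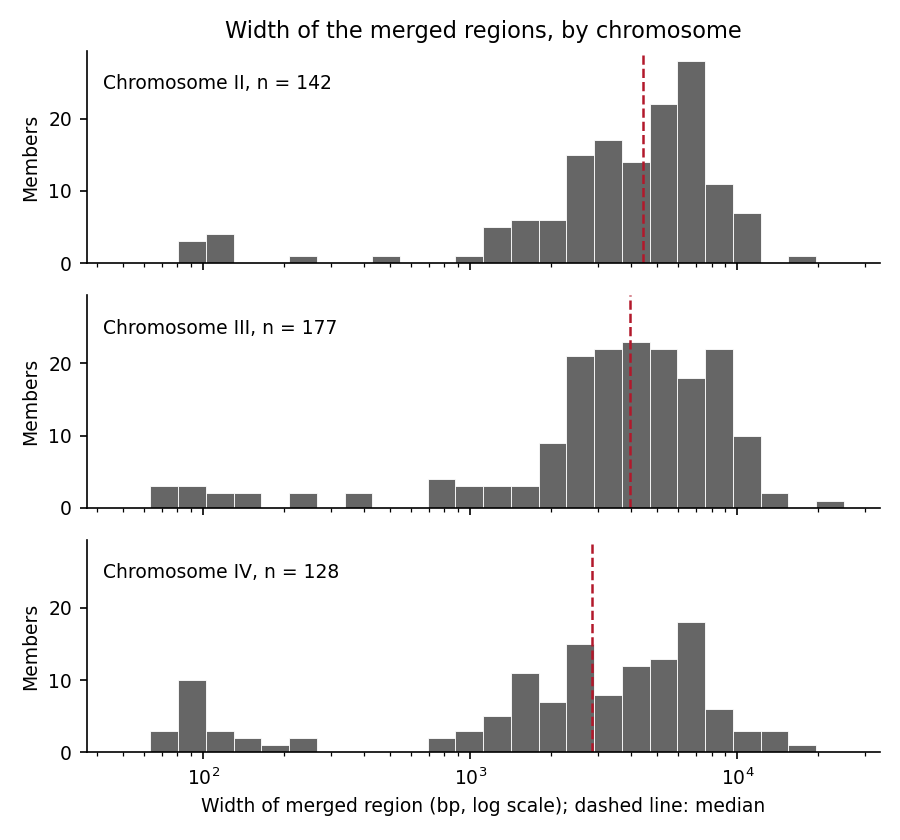
Number of members (vertical axis) by width of the merged region (horizontal axis, bp, log scale) for chromosomes II, III and IV, with the median as a dashed line. Most members lie above 1000 bp, and a small separate group lies around 100 bp in each chromosome, the largest of them the 21 members under 500 bp on IV.

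Among all merged regions of the 3 domains, the share with a peak in all 4 lists went with width. It was 5.74% of the 767 regions under 500 bp, 40.3% of the 434 regions from 2000 to under 5000 bp and 26 of 30 (86.7%) at 10000 bp or more. Width and presence are not independent here, since merging adds the peaks of every list to the width. In the arms of the same chromosomes the shares were 5.38% of 1097, 31.2% of 346 and 23 of 25 (92.0%).

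The 3 chromosomes contributed unequally. Chromosome III held 177 members in 6.62 Mb (26.7 per Mb), chromosome II held 142 in 7.14 Mb (19.9 per Mb) and chromosome IV held 128 in 9.07 Mb (14.1 per Mb). Chromosome IV thus had 28.6% of the members in 39.7% of the domain length. Its members were also narrower, with a median of 2854 bp, against 3978 bp on III and 4421.5 bp on II, and 21 of the 44 members under 500 bp lay there. As shares of all merged regions of a domain, the members made up 26.7% on II, 24.8% on III and 20.7% on IV. Over the 3 domains there were 19.6 members per Mb, against 12.3 regions in all 4 lists per Mb in the arms of these chromosomes, where they numbered 291. By chromosome, the values were 19.9 per Mb in the domain and 8.60 per Mb in the arms on II, 26.7 and 18.1 per Mb on III, and 14.1 and 10.8 per Mb on IV. These densities are descriptive, because the choice of members rests on the same calls.

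The spacing of members was shortest on III and most uneven on IV. The median gap between neighbouring members was 27.4 kb over 444 gaps, with quartiles of 8.65 and 55.9 kb. By chromosome the median was 30.9 kb on II, 19.4 kb on III and 34.5 kb on IV. Gaps over 200 kb occurred 2 times on II, 0 times on III and 8 times on IV. Between neighbouring regions of the arms with a peak in all 4 lists the median gap was 43.5 kb, over 285 gaps. Counted in successive 1 Mb bins from the left end of each domain, full bins held 18 to 23 members on II, 24 to 33 on III and 7 to 24 on IV. On IV the poorest and the richest bin were neighbours, with 7 members in the seventh bin and 24 in the eighth.

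**Figure D2:**
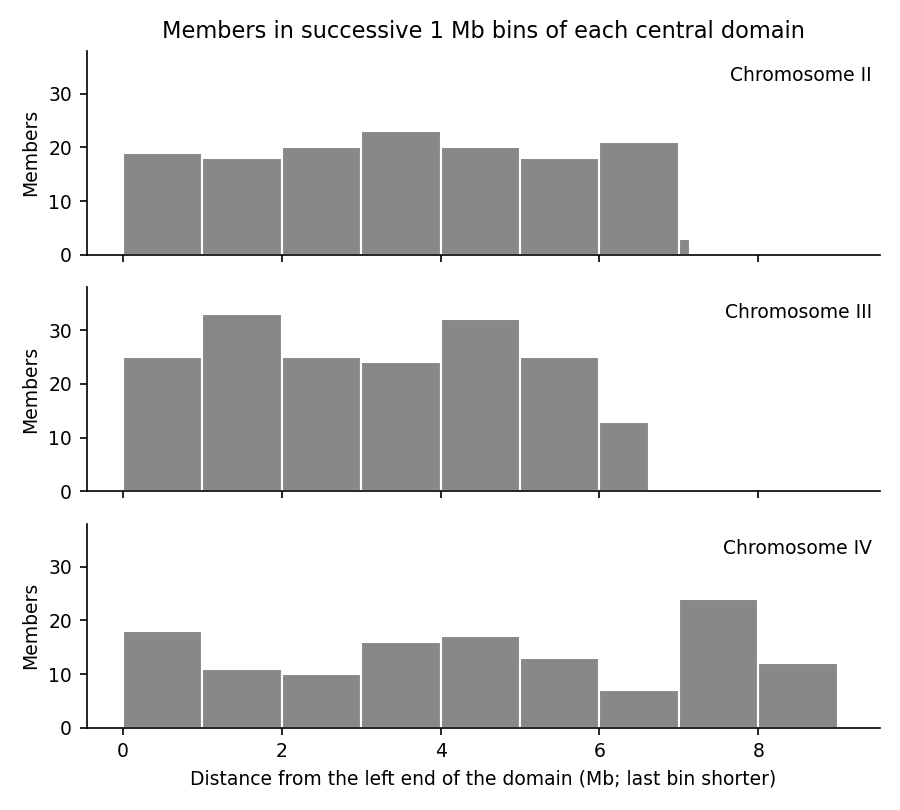
Number of members (vertical axis) in successive 1 Mb bins from the left end of each central domain (horizontal axis, Mb; the last bin of a domain is shorter). Bars for II vary little, from 18 to 23 in full bins, whereas those for IV range from 7 to 24.

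The widest gap on each chromosome was not devoid of calls. On IV it ran from 10386295 to 10822603 (436.3 kb) and still held 21 merged regions present in fewer than all lists. In it, the spr-5; met-2 lists covered 9.91 kb in replicate 1 and 0.907 kb in replicate 2, and the wild-type lists covered 7.58 and 0.475 kb. The widest gap on II, from 5056815 to 5321981 (265.2 kb), held 13 such regions, and that on III, from 3869439 to 4055483 (186.05 kb), held 20. Of all 444 gaps, 123 (27.7%) held no other merged region. The nearest merged region of any kind lay a median of 1937 bp from a member.

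Some members formed runs. With gaps under 5000 bp taken as the limit, 130 members (29.1%) stood in 57 runs, of which 44 had 2 members and 11 had 3. The longest run was 5 members on II from 7853268 to 7884376. In it, the spr-5; met-2 lists covered 17.9 kb in replicate 1 and 1.47 kb in replicate 2, and the wild-type lists covered 14.0 and 8.81 kb. The mutant list was the longer one in replicate 1 of this run, and the wild-type list was the longer one in replicate 2. The only run of 4 lay on IV from 7904021 to 7926608, where the spr-5; met-2 lists covered 13.7 and 3.86 kb and the wild-type lists 13.1 and 7.33 kb. The widest of the runs of 3 lay on II from 4935720 to 4959912, with 17.0 and 2.96 kb in the spr-5; met-2 lists and 19.1 and 3.37 kb in the wild-type lists.

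The bases called within the members differed more by replicate number than by genotype. The spr-5; met-2 lists covered 1.69 Mb of the members in replicate 1 and 0.252 Mb in replicate 2, and the wild-type lists covered 1.73 Mb in replicate 1 and 0.498 Mb in replicate 2. The replicate 1 values of both genotypes thus lay together, and both replicate 2 values lay below them. The mean was 0.970 ± 1.02 Mb (SD, n = 2) in spr-5; met-2 and 1.11 ± 0.869 Mb (SD, n = 2) in the wild type. The difference, mutant minus wild type, was -0.143 Mb, smaller than the SD in either genotype (two-sided exact permutation p = 0.667, where 2 libraries against 2 cannot give less than 0.333). The ratio of mutant to wild-type length was 0.977 within replicate 1 and 0.506 within replicate 2. Over the rest of each list, outside the members, the same ratios were 1.05 and 0.388. That rest includes regions without a peak in the short spr-5; met-2 replicate 2 list, which the choice of members excludes, so these ratios are not like for like. Among regions in all 4 lists, the replicate 2 ratio was 0.475 in the arms, 0.453 on I, 0.523 on V and 0.572 on X. Leaving out spr-5; met-2 replicate 2 turned the difference to 0.801 Mb and leaving out wild-type replicate 1 turned it to 0.428 Mb, whereas it was -0.815 Mb without spr-5; met-2 replicate 1 and -0.814 Mb without wild-type replicate 2.

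**Figure D3:**
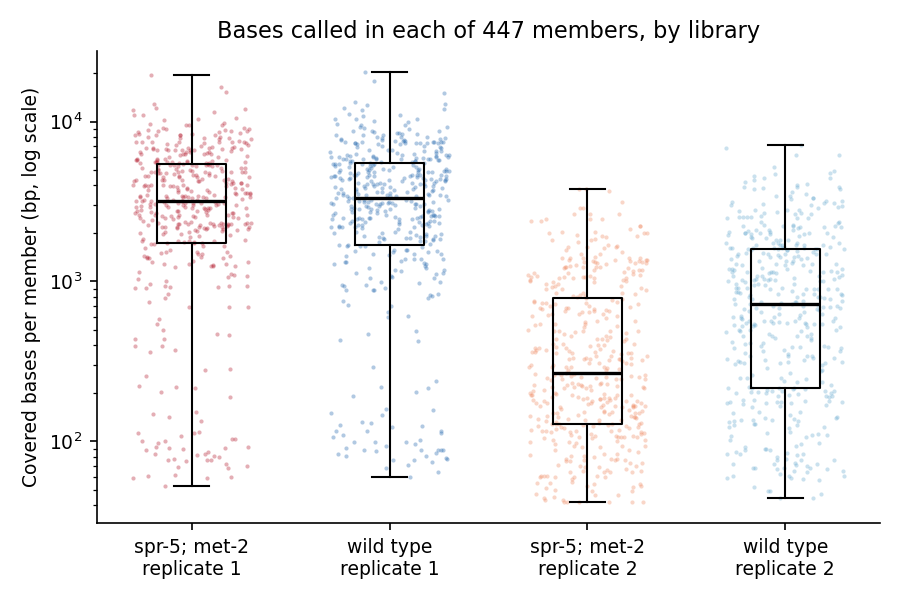
Bases called per member (vertical axis, bp, log scale) in each library, 1 point per member; boxes show quartiles and median, and whiskers the lowest and highest member. The medians are 3196 bp and 266 bp in spr-5; met-2 replicates 1 and 2 and 3306 bp and 726 bp in the wild-type replicates.

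Per member, the median covered length was 3196 bp in spr-5; met-2 replicate 1 and 266 bp in spr-5; met-2 replicate 2, against 3306 bp and 726 bp in the same replicates of the wild type. As a share of the member's width, the medians were 90.2% and 10.1% in the spr-5; met-2 libraries and 92.9% and 23.7% in the wild-type libraries. The replicate 1 lists thus filled nearly the whole of a typical member, and the replicate 2 lists marked a small stretch of it. A peak of 1000 bp or more was present in 372 members in spr-5; met-2 replicate 1 and 86 in spr-5; met-2 replicate 2, against 373 in wild-type replicate 1 and 166 in wild-type replicate 2. Such a peak was present in every list for 51 members.

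By chromosome, the replicate 1 ratio lay on either side of 1, and the replicate 2 ratio lay between 0.472 and 0.527. On II, the spr-5; met-2 lists covered 0.582 Mb in replicate 1 and 0.0755 Mb in replicate 2, and the wild-type lists 0.569 and 0.150 Mb. The mutant to wild-type ratio there was 1.02 in replicate 1 and 0.504 in replicate 2. On III it was 0.961 and 0.527, and on IV 0.943 and 0.472. On each of the 3 chromosomes the difference of means was smaller than the SD in either genotype. The exact permutation test (two-sided) gave p = 1 on II, 0.667 on III and 0.667 on IV. With 2 libraries against 2 it cannot give less than 0.333.

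The share of each list that lay in members moves with list length by construction, because a member needs a peak in every list and the shortest lists limit the choice. Members held 18.3% of the length of the spr-5; met-2 replicate 1 list and 32.3% of the replicate 2 list, and 19.4% and 26.8% of the wild-type lists. The mean share was 25.3 ± 9.91% (SD, n = 2) in spr-5; met-2 and 23.1 ± 5.22% (SD, n = 2) in the wild type, a difference of 2.20 percentage points (exact permutation test, two-sided, p = 1). Within replicate 1 the difference was -1.12 percentage points and within replicate 2 it was 5.52, so its direction was not shared by the replicate numbers. Leaving out spr-5; met-2 replicate 2 gave -5.09 and leaving out wild-type replicate 1 gave -1.20 percentage points, whereas it was 9.39 without spr-5; met-2 replicate 1 and 6.26 without wild-type replicate 2. Within the 3 domains alone, the members held 57.0% and 85.1% of what the spr-5; met-2 lists covered, and 57.1% and 77.0% of what the wild-type lists covered.

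Member by member, the replicate 1 libraries were close to even. In replicate 1, 212 members were covered over more bases in spr-5; met-2 and 232 over more bases in the wild type, with 3 equal. The median ratio, mutant over wild type, was 0.988 (quartiles 0.795 and 1.17), and 146 members (32.7%) lay within 10% of 1. In replicate 2, 104 were covered over more bases in spr-5; met-2 and 341 over more in the wild type, with a median ratio of 0.617 (quartiles 0.232 and 0.964). Differences over 2-fold were more numerous there, since 48 members exceeded 2-fold towards the mutant and 208 towards the wild type in replicate 2, against 18 and 20 in replicate 1. Regions in all 4 lists in the arms and on I and V had similar replicate 2 values, and those on X did not. On X the wild type covered more bases in replicate 2 in 90.6% of them, and by over 2-fold in 21.9%. The wild type covered more bases in 76.3% of the members, 83.5% of the arm regions, 78.2% of those on I and 79.2% on V, and by over 2-fold in 46.5% of the members, 42.6% of the arm regions, 42.9% on I and 41.7% on V.

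**Figure D4:**
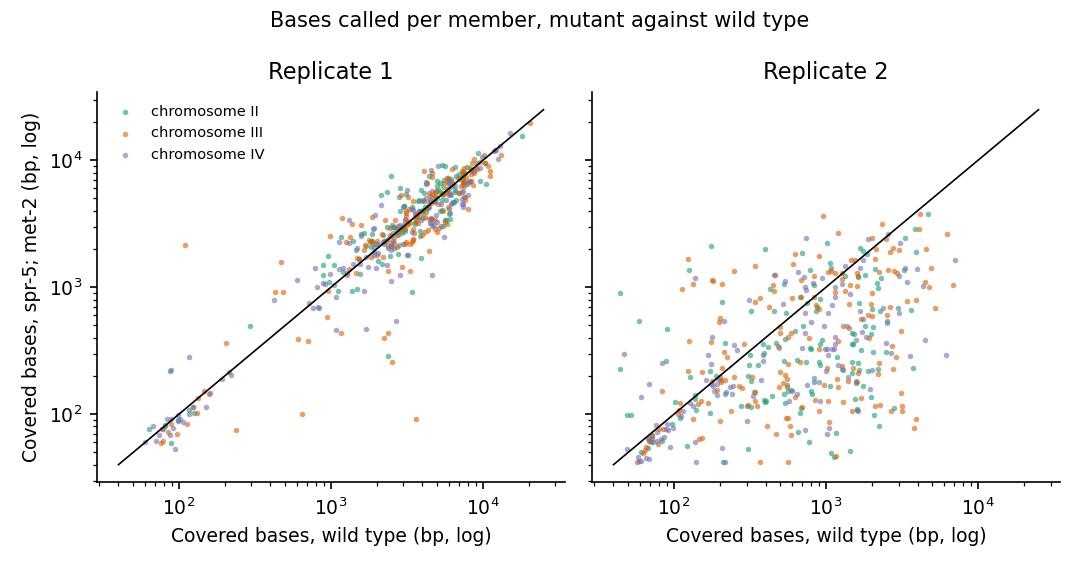
Bases called per member in spr-5; met-2 (vertical axis, bp, log scale) against the wild type (horizontal axis, bp, log scale) within replicate 1 (left) and replicate 2 (right), 1 point per member, coloured by chromosome; the line marks equal values. Replicate 1 points follow the line (median ratio 0.988), and most replicate 2 points, 341 of 447, lie below it.

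Taking both replicate numbers together, 55 members (12.3%) were covered over more bases in spr-5; met-2 within each replicate number, beside 10.8% of all 1291 regions with a peak in all 4 lists. A further 182 members (40.7%) were covered over more bases in the wild type within each, beside 45.0% of the 1291 regions. The 1291 regions include the members, and both shares were near these background values, so neither is a result about the central domains. Over all 7653 merged regions, most of which lack a peak in some list, the percentages were 3.48 and 15.7. Another 156 members (34.9%) were covered over more bases in the mutant in replicate 1 and in the wild type in replicate 2, beside 41.6% of the arm regions in all 4 lists, 32.9% of those on I, 28.0% on V and 19.8% on X. The opposite pattern held for 49 members (11.0%), beside 5.50% of the arm regions in all 4 lists, 10.7% on I, 8.93% on V and 8.33% on X.

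The 3 members with the largest excess in spr-5; met-2 among those 55 had most of that excess, in bp, in replicate 1, whose lists are the longer ones. The first, on III from 8077673 to 8086671, was covered over 8182 and 1526 bp in spr-5; met-2 replicates 1 and 2, against 4069 and 606 bp in wild-type replicates 1 and 2. It was 1 unbroken peak in mutant replicate 1 and 3 peaks in wild-type replicate 1. The second, on II from 10574788 to 10583910, was covered over 9123 and 652 bp in spr-5; met-2 and over 5402 and 321 bp in the wild type. The third, on IV from 4307438 to 4316430, was covered over 8993 and 318 bp in spr-5; met-2 and over 5054 and 259 bp in the wild type. In both of these, too, the mutant had 1 peak in replicate 1 where the wild type had 3 and 2 peaks. In all 3, each spr-5; met-2 replicate 2 value lay below both wild-type replicate 1 and mutant replicate 1, so the genotypes overlapped.

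The 3 members with the largest excess in the wild type showed it in both replicate numbers. The first, on III from 5016364 to 5029552, was covered over 10947 and 1044 bp in spr-5; met-2, against 13189 and 6814 bp in the wild type. On IV from 11632361 to 11639716, the values were 4289 and 288 bp in spr-5; met-2 and 7356 and 3543 bp in the wild type. On III from 4992222 to 5001507, they were 4826 and 226 bp in spr-5; met-2 and 7608 and 2779 bp in the wild type. Each was 1 unbroken peak in wild-type replicate 1 and 2 or 3 peaks in mutant replicate 1. The members on III lay 14.9 kb apart, with 1 other member between them. In all 3 the genotypes overlapped, since mutant replicate 1 exceeded wild-type replicate 2. Both sets of 3 were picked for these differences, which are therefore a description without a test.

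Most bases called in one genotype alone lay outside the span of the other genotype's peaks in the same member. Where the other genotype had 1 peak, this follows from the measure, since nothing can then lie between its peaks. Members with 1 peak numbered 373 and 348 in spr-5; met-2 replicates 1 and 2, and 388 and 304 in the wild-type replicates. The split into outer and inner bases is therefore descriptive. In replicate 1, 1424 kb were called in both genotypes, 263 kb in spr-5; met-2 alone and 303 kb in the wild type alone. Of these, 152 kb in the mutant and 174 kb in the wild type lay beyond the outermost ends of the other genotype's peaks, and the remainder lay in stretches between them. In replicate 2 the genotypes shared 138 kb, with 114 kb in spr-5; met-2 alone and 360.2 kb in the wild type alone, of which 84.1 kb and 281 kb lay beyond those ends. The span from first to last called base was wider in the mutant in 211 members and wider in the wild type in 233 in replicate 1, with a median difference, mutant minus wild type, of -9 bp. In replicate 2 these counts were 121 and 324, with a median difference of -288 bp.

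Whether a member was called as 1 peak or as several also varied. Because neighbouring peaks of a list are never less than 1201 bp apart, a member split in a list contains a stretch of at least that length that was not called there. One peak sufficed in 373 members in spr-5; met-2 replicate 1 and 348 in spr-5; met-2 replicate 2, against 388 in wild-type replicate 1 and 304 in wild-type replicate 2. As percentages, in that order, these were 83.4, 77.9, 86.8 and 68.0. For arm regions in all 4 lists they were 85.9, 83.8, 86.3 and 70.8, and for those on I 81.7, 87.2, 85.5 and 67.1. They were 92.3, 90.5, 91.1 and 76.8 on V and 93.8, 97.9, 99.0 and 91.7 on X. In replicate 1, 61 members were split in the mutant alone, 46 in the wild type alone and 13 in both. In replicate 2 the counts were 39 in the mutant alone, 83 in the wild type alone and 60 in both. The largest number of peaks in 1 member was 6, in wild-type replicate 2 on IV from 4793653 to 4811781.

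The replicate 1 lists filled 84.1% (spr-5; met-2) and 86.1% (wild type) of the summed width of the members, so most of any replicate 2 peak in a member can be expected to lie within them. Of the bases called in members by spr-5; met-2 replicate 2, 93.5% were also called in spr-5; met-2 replicate 1 and 94.4% in wild-type replicate 1. For wild-type replicate 2, 91.6% lay in spr-5; met-2 replicate 1 and 94.5% in wild-type replicate 1. The replicate 2 lists of the genotypes shared a base with each other in 334 members (74.7%), and 54.8% of the mutant's bases lay in wild-type replicate 2 peaks. In the other 113 members the genotypes' replicate 2 peaks were apart by a median of 599 bp (quartiles 138 and 1166 bp). For the arm regions in all 4 lists, the replicate 2 lists shared a base in 251 of 291 (86.3%). Across the 447 members, the Spearman correlation of covered length was 0.89 between the replicate 1 libraries and 0.50 between the replicate 2 libraries. These points share the merged width, which limits every list, so the correlations are descriptive.

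**Figure D5:**
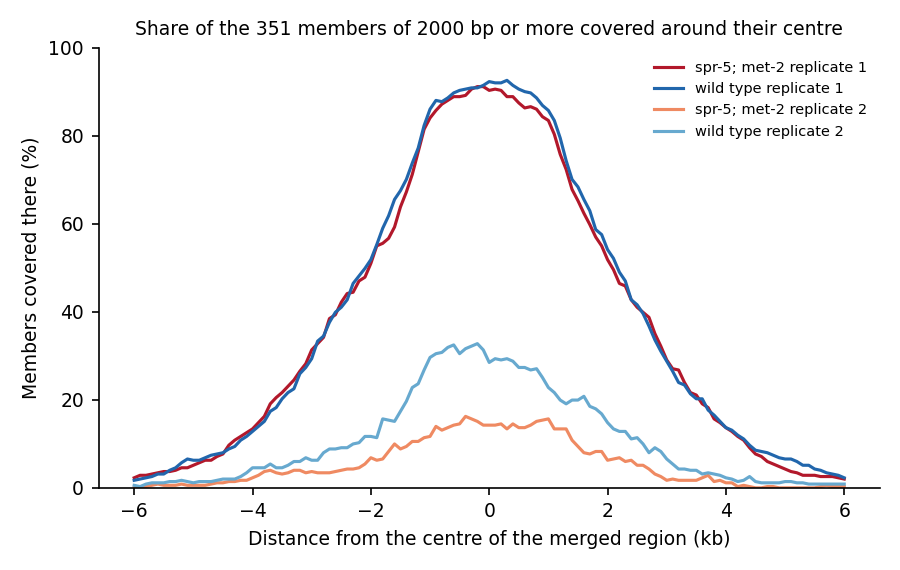
Percentage of the 351 members of 2000 bp or more that are covered at each distance from the centre of the merged region (horizontal axis, kb), in steps of 100 bp, for each library. At the centre the values are 90.3% and 14.2% in spr-5; met-2 replicates 1 and 2 and 92.3% and 28.5% in wild-type replicates 1 and 2, and the replicate 1 curves nearly coincide.

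The short replicate 2 peaks did not keep to 1 place in the domain. In the 351 members of 2000 bp or more, the middle of 3 equal parts held 35.9% of the bases of spr-5; met-2 replicate 2 and 38.5% of those of wild-type replicate 2. The replicate 1 lists, which fill most of the domain, had 35.2% and 35.0% there. The centre of the longest replicate 2 peak fell in the middle part in 117 of 351 members in spr-5; met-2 and 135 in the wild type. Left and right parts were similar, at 31.3% and 32.8% in the mutant and 30.9% and 30.6% in the wild type. Left and right are chromosome directions here, and the strand of the underlying genes was not used.

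The core of a member, meaning the bases called in all 4 lists, was short. Its median was 108 bp (quartiles 0 and 362.5 bp), and the cores summed to 133 kb, or 6.65% of the summed width. In 123 members (27.5%) no base was called in all 4 lists. In 113 of these the replicate 2 peaks of the genotypes shared no base, which by definition leaves no core. Members without a core made up 35.4% of those from 2000 to under 5000 bp and 28.0% of those from 5000 to under 10000 bp. In the arms, 42 of 291 regions (14.4%) in all 4 lists had no core, and the share was 21.8% on I, 17.9% on V and 10.4% on X. No region under 500 bp lacked a core, either among the members or in the arms. Such regions made up 9.84% of the members and 20.3% of the arm regions, so the 2 shares without a core are not like for like.

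A core of 1000 bp or more was found in 39 members (8.72%), 13 on II, 17 on III and 9 on IV. Among regions in all 4 lists elsewhere, the share was 11.0% in the arms, 7.27% on I, 8.33% on V and 5.21% on X. The 39 members held 46.0% of all core bases of the members. The median covered length in them was 6450 bp and 1645 bp in the spr-5; met-2 libraries, against 5940 bp and 2572 bp in the wild-type libraries. In replicate 1 the mutant covered more bases in 26 of the 39, and in replicate 2 in 6 of them. The summed covered length, mutant over wild type, was 0.991 in replicate 1 and 0.599 in replicate 2. A core cannot be longer than the covered length in any list. Choosing by core thus selects on the covered lengths compared here, most of all in the shortest list, spr-5; met-2 replicate 2. These counts and ratios of the 39 members are therefore descriptive. The largest core was an unbroken 3763 bp on II from 11977331 to 11981093. It lay in the member from 11975903 to 11982383, which was covered over 6450 and 3763 bp in spr-5; met-2 and over 6381 and 4694 bp in the wild type, with 1 peak in each list. The second was 2860 bp on II from 10544580 to 10547439, in a member covered over 3983 and 2860 bp in spr-5; met-2 and over 3777 and 3830 bp in the wild type. In this member wild-type replicate 2 covered more than wild-type replicate 1, unlike in the first.

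The third largest core, 2729 bp in 3 pieces, lay in the widest member, on III from 6368561 to 6389090 (20530 bp). This member was covered over 19608 and 3802 bp in spr-5; met-2 and over 20327 and 4168 bp in the wild type, which made it the most covered member in both replicate 1 lists and in mutant replicate 2. It was 1 peak in both replicate 1 lists, 5 in spr-5; met-2 replicate 2 and 4 in wild-type replicate 2. The widest member on II, from 11661104 to 11679913 (18810 bp), was covered over 15392 and 1367 bp in spr-5; met-2 and over 17982 and 3264 bp in the wild type. The widest on IV, from 4793653 to 4811781 (18129 bp), was covered over 16456 and 1639 bp in spr-5; met-2 and over 15019 and 7103 bp in the wild type. Its wild-type replicate 2 value was the highest of that list among the members.

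The 44 members under 500 bp were short in every list. Their median width was 102.5 bp, and 32 of them were under 150 bp. All 44 had a core, and in 37 of them the 4 starts lay within 50 bp of each other and so did the 4 ends, a spread that their width itself limits. Their covered length was 53 to 494 bp (median 89 bp) and 42 to 188 bp (median 66.5 bp) in spr-5; met-2 replicates 1 and 2, and 60 to 294 bp (median 98 bp) and 49 to 340 bp (median 77 bp) in wild-type replicates 1 and 2. Of their summed width, the spr-5; met-2 lists covered 85.0% in replicate 1 and 58.3% in replicate 2, and the wild-type lists 84.3% and 68.7%. The mutant to wild-type ratio of covered length was 1.01 in replicate 1 and 0.849 in replicate 2. The replicate 2 ratio was 0.554 in members from 2000 to under 5000 bp, 0.482 in those from 5000 to under 10000 bp and 0.402 in those of 10000 bp or more. Arm regions in all 4 lists had similar ratios, 0.846 under 500 bp and 0.510, 0.481 and 0.397 in these wider classes. From 500 to under 1000 bp the ratio was 0.584 in members and 1.42 in 6 arm regions. From 1000 to under 2000 bp it was 0.674 and 0.383. The narrowest member, on IV from 8087711 to 8087778 (68 bp), was covered over 60 and 43 bp in spr-5; met-2 and over 60 and 61 bp in the wild type. Regions under 500 bp made up 9.84% of the members, against 59 of 291 (20.3%) in the arms.

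Members and the nearest regions in all 4 lists outside each domain are set side by side here, by the distance of their midpoints from the boundary. The closest pair lay at the left end of III, where the member from 3730456 to 3739365 had its midpoint 12.9 kb inside and the region from 3717731 to 3724825 had its midpoint 0.722 kb outside, the boundary falling within it. That member was covered over 8757 and 1069 bp in spr-5; met-2 and over 8206 and 207 bp in the wild type, and the outside region over 7095 and 659 bp in spr-5; met-2 and over 2507 and 232 bp in the wild type. At the right end of II the last member lay 40.9 kb inside, and the nearest region outside, 716 bp wide, lay 4.05 kb beyond. At the right end of III these distances were 5.78 and 71.0 kb, and at the left end of II 23.4 and 139 kb. On IV the first member lay 150.6 kb inside and the last 354 kb inside, with regions outside at 81.0 and 126 kb.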

How the data were processed

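The deposited files have no header and hold 1 list of broad peaks for each of 4 ChIP libraries, in 3 columns, and the unit of their values is a position (other: no count, score or p-value per peak). The submitters' processing notes name FastQC, Bowtie2, deepTools, MACS2 and bedtools and the genome build ce10, with no order or settings; the control, the read filters and the threshold are not given in the sources used here. Starts are printed 1-based. Genes and sequences were not assigned, because the gene table used here is of another build (WBcel235). Replicates are not pooled in these lists.

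Lists were merged with Python 3.11.15 and numpy 2.4.6. Covered length is the sum of a list's peaks inside a merged region, and a core is the bases in all 4 lists. Groups were compared over libraries by an exact permutation test (two-sided) over 6 assignments. Regions are not replicates and were not tested. Calculations were tested on simulated data. The members, lists and tests were chosen with earlier results of these data known. Regions were named by rule: the widest member and widest gap per chromosome, the 3 largest cores, the 3 members with the largest mean difference towards each genotype among those with the same direction in both replicate numbers, the 3 longest runs, the narrowest member and the regions next to each boundary. Alternatives were a minimum peak width of 500 bp, overlap of 50% of the shorter peak, joining of regions under 2000 bp apart, regions wholly inside a domain, boundaries moved by 0.25 Mb, omission of each library, and a replicate block. Joining touching peaks and using the replicate 1 lists only were added after seeing the data.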

Additional observations from a re-analysis of the deposited data

How the results depend on the processing

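The number of members stayed between 419 and 447 with a 50% overlap, joined regions, regions wholly inside the domain, moved boundaries and touching peaks joined. Restricting the lists to peaks 500 bp or wider left 104, and asking only for a peak in both replicate 1 lists gave 1096; leaving out 1 library gave 438 to 703. The covered-length difference stayed negative, from -0.146 to -0.0298 Mb, with the 500 bp minimum, 50% overlap, joined regions, regions wholly inside and touching peaks joined, and was -0.0399 Mb in the replicate 1 lists alone; leaving out 1 library gave -0.815 to 0.801 Mb. The difference in the share of the list was 5.82 percentage points with the 500 bp minimum, reversed to -1.12 in the replicate 1 lists alone, and ran from -5.09 to 9.39 when 1 library was left out. With peaks of at least 500 bp, 18 members were covered over more bases in the mutant within both replicate numbers and 23 over more in the wild type. Leaving out 1 library, which leaves 1 replicate number to compare, gave 104 to 320 and 269 to 379. Overlap of 50%, joined regions, regions wholly inside and touching peaks joined moved these counts by less than 1.5 times; moved boundaries were run for the number of members only.

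Replicate numbers are not stated to mark a shared batch. Deviations of same-numbered libraries from their genotype mean correlated over the 447 members (r = 0.80). With 2 libraries per genotype, each deviation is set by replicate 1 minus replicate 2. The replicate 1 lists filled 84.1% and 86.1% of the summed width in spr-5; met-2 and wild type, and the replicate 2 lists 12.6% and 24.8%. This correlation therefore follows member width and list length, and it cannot show a shared batch. With a replicate block the covered-length difference was -0.143 Mb (exact sign-flip test, p = 0.5, the smallest possible) and the share difference 2.20 percentage points (exact sign-flip test, p = 1). The exact permutation test without the block cannot give less than 0.333. No call was possible with or without the block, so it cannot show whether a result depends on it. Read depth is unknown, so an uncalled base shows only that it was below the authors' threshold.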
